A study of Mus musculus with 14 samples.

Results

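The genes described here encode 9 proteins through which a mature T cell recognises antigen and passes the signal on: Lck, Cd3d, Cd3e, Cd3g, Cd4, Cd5, Cd8a, Zap70 and Lat. They were chosen by name and read wherever a non-control probe carried their RefSeq transcript, which gave 11 of the 41174 probes of the array and 9 of the 17178 genes that could be named. RNA came from whole lungs of male C57BL/6N mice, taken 6 months after an intratracheal dose, with 1 lung on each of 14 one-colour arrays. The groups were VCF (carbon fibre before recycling, 200 µg per mouse, 4 lungs), CCF (carbon fibre after carbonization, 200 µg per mouse, 3 lungs), RCF (carbon fibre after firing, 200 µg per mouse, 4 lungs) and Ctrl (phosphate-buffered saline, the vehicle, 3 lungs). The lungs are described as independent biological samples, and no other allele or agent is given for any group.

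The T cell receptor itself has no enzymatic activity. Antigen binding is relayed by the CD3 chains, whose cytoplasmic motifs are phosphorylated by the kinase LCK, which the co-receptors CD4 and CD8 bring to the complex. ZAP-70 then docks on those motifs and phosphorylates the adaptor LAT, while CD5 damps the response. In a healthy lung such T cells lie in the interstitium, in the airway wall and in the blood that the vessels hold. Because the tissue was measured in bulk, fewer T cells and less of an RNA per T cell cannot be told apart in any value below.

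Start regions of 4 members are shown because these genes varied together from lung to lung, as described further on. Cd3g and Cd3d are neighbours that are read in opposite directions from start sites 1355 bases apart, with Cd3e as the next gene. Lat followed the average of the members most closely, and Cd5 had the widest spread within groups. Each window runs 5′ to 3′ on the gene's own strand, across the start site, over 300 bases, and comes from RefSeq on build GRCm38.p6. The windows are chr9:44980382-44980681 (minus strand) for Cd3g, chr9:44981536-44981835 (plus strand) for Cd3d, chr7:126369519-126369818 (minus strand) for Lat and chr19:10738925-10739224 (minus strand) for Cd5. Capitals mark exact matches, on either strand, to short cores used by factors active in T cells.
Cd3g: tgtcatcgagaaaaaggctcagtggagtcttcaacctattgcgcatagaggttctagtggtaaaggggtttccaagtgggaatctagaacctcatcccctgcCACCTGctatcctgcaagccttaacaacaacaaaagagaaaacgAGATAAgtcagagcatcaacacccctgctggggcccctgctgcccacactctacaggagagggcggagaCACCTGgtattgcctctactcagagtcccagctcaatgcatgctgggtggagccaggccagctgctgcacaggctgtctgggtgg
Cd3d: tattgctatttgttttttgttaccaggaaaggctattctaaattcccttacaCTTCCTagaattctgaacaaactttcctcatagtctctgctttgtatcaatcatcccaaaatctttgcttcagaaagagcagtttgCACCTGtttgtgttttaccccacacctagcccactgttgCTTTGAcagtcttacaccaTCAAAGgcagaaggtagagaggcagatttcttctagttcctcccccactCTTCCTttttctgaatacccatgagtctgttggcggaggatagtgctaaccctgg
Lat: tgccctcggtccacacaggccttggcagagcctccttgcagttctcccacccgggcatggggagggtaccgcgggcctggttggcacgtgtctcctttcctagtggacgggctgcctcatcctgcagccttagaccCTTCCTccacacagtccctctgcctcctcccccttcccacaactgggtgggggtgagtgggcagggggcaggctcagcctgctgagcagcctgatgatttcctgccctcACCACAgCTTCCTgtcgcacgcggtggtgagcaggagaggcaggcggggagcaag
Cd5: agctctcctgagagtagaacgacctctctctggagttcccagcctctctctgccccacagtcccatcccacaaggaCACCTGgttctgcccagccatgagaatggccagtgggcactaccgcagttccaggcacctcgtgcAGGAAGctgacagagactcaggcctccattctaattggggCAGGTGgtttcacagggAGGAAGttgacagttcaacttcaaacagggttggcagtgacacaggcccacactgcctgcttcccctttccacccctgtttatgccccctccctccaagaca

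RefSeq start windows were at hand for 8 of the 9 members, 11 windows in all, and each core below was searched on both strands. AGGAAG, the core of sites for ETS factors, lay in 8 of these 11 windows, against 35.4% of the 32851 windows of all genes. An E-box, CAGGTG, also lay in 8 of the 11 member windows, against 20.2% of all windows. The RUNX core, TGTGGT, was found in 3 member windows, against 16.8% of all windows. The core read by TCF and LEF factors, CTTTGA, was found in 2 member windows, against 16.0% of all windows. AGATAA, the core that GATA factors bind, was found in 1 member window, against 11.2% of all windows. The matches printed do not overlap each other. These are matches of letters, described for the members only.

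All 11 member probes stood well above background on 14 of 14 arrays. The lungs also carried their own tissue's markers: 8 of 8 lung epithelial genes, among them Sftpc and Scgb1a1, were above background on every array. Values are log2 of the processed signal minus the 75th percentile of the same array, so that 0 is the 75th percentile, and levels of different probes are not compared. That percentile ran from 724.7 to 1345.6 intensity units, 63.07% to 70.5% of probes stood above background on an array, and no spot was saturated. The number of arrays limits the precision. The arrays lay on 4 slides, each with its own scan, and 3 of these slides held Ctrl and fibre lungs together.

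One lung stood apart in some genes of immature thymocytes, the T cell precursors of the thymus. Dntt, which adds bases to receptor gene joints in those cells, read 1.11 on CCF 3, against -3.32 to -1.51 on the other 13 arrays. Rag1, which cuts receptor genes for rearrangement, was above background on 3 arrays only, at -4.14 on CCF 2, -0.93 on CCF 3 and -5.02 on RCF 1. Its partner Rag2 was above background on 0 arrays, and Ptcra and Arpp21 on 2 each, CCF 3 and RCF 4. Rmnd5a went the other way: it was above background on all 14 arrays and lowest on CCF 3, at -1.83. Rag1, Dntt and Rmnd5a were the 3 of 6 list genes that could be tested. Their mean on an array, minus each gene's median, ran from -0.28 to -0.01 in VCF, -0.04 to 3.62 in CCF, -0.23 to 1.43 in RCF and -0.37 to 0.21 in Ctrl. On CCF 3, Rag1 stood at 7.51, Dntt at 3.74 and Rmnd5a at -0.38 from its median. In any comparison 0 of the 3 passed the test, where at most 0.0102% of all probes did. Rag1 alone had an unadjusted p under 0.05 in limma, in CCF against Ctrl, CCF against VCF and RCF against CCF (6.59%, 5.8% and 7.9% of all probes). Rag1 met the filter of 3 arrays only through the lungs where it was high, and its other readings were at background. Those p-values therefore cannot serve as evidence of a difference between groups. Mature T cell genes are also expressed in the thymus. For Cd3d, Cd8a, Lck, Trat1, Bcl11b, Cd69 and Prf1, CCF differences are therefore also given below without CCF 3. CCF 2 and RCF 1, where Rag1 was also above background, stay in all values without CCF 3. For the other members, CCF minus Ctrl without CCF 3 was 0.19 in Cd3e, 0.10 in Cd3g and 0.19 in Cd4. It was -0.05 in Cd5, -0.20 in Zap70 and -0.02 in Lat. Such values are not given for the other named genes. The part of thymocyte RNA in the CCF differences was not tested.

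No member passed the test in any comparison. Tests are limma's moderated statistic, from 1 fit of all groups, and a probe passed at 0.05 after Benjamini-Hochberg adjustment over 29269 probes. In VCF against Ctrl 0 of 9 members passed, where 0.0102% of all probes did. In CCF against Ctrl 0 of 9 passed (0% of all probes), and in RCF against Ctrl 0 of 9 (0%). In all fibre groups against Ctrl 0 of 9 passed, where 0.00342% of probes did. Between fibres 0 of 9 passed in CCF against VCF (0%), in RCF against VCF (0%) and in RCF against CCF (0%). The limma test of any difference among the 4 groups passed 0 of 9 members (0% of probes), with the smallest adjusted p, 0.745, at Zap70 (unadjusted p = 0.0976).

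**Figure D1:**
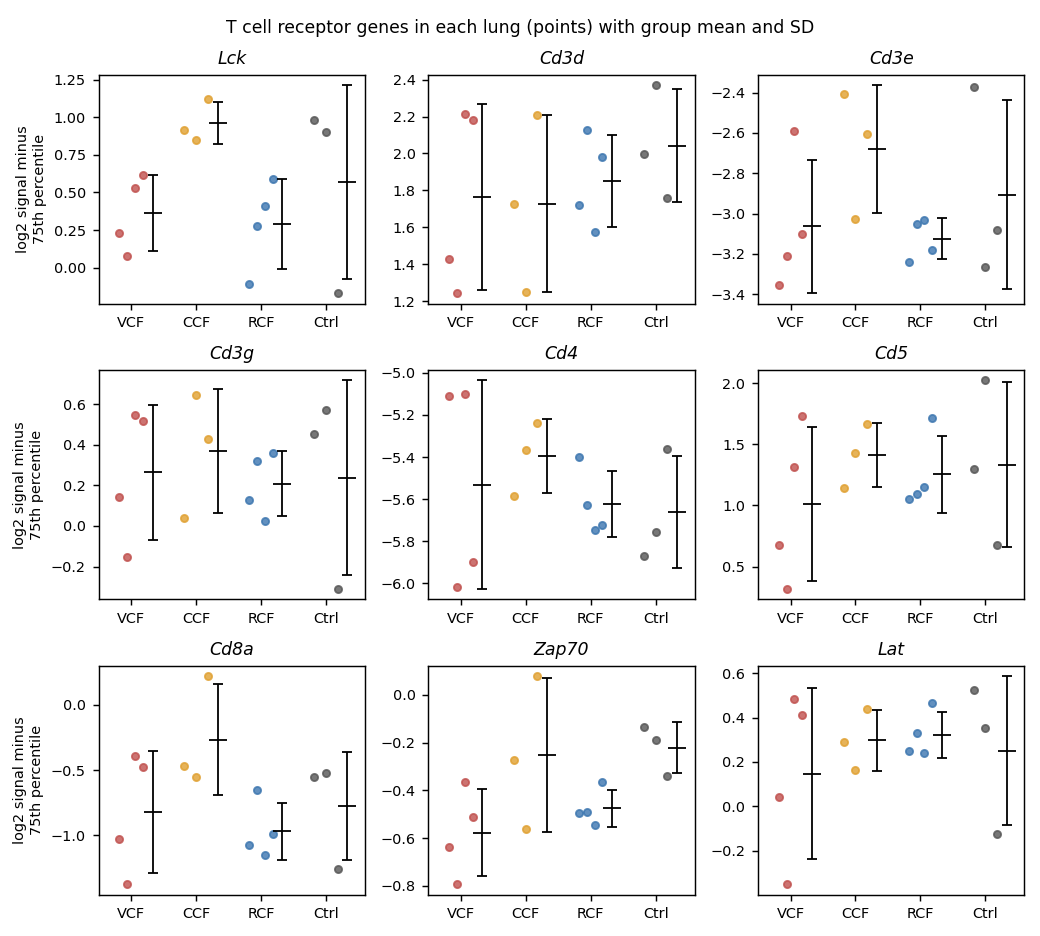
Level of each of the 9 genes (log2 signal minus the array's 75th percentile, vertical axis) in the 4 VCF, 3 CCF, 4 RCF and 3 Ctrl lungs, from left to right; points are single lungs, and the bar beside them is the group mean with its SD. Most groups overlap, and the Zap70 points of VCF and RCF lie below all 3 Ctrl points.

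Among the CD3 chains, Cd3d encodes the delta chain. Its level was 1.43, 1.24, 2.21 and 2.18 in the 4 VCF lungs, 1.72, 1.25 and 2.21 in the 3 CCF lungs, 1.72, 2.13, 1.58 and 1.98 in the 4 RCF lungs, and 2.00, 2.37 and 1.76 in the 3 Ctrl lungs. All groups overlapped, and VCF 1 and VCF 2 lay well below VCF 3 and VCF 4. The difference from Ctrl was -0.28 in VCF (SE 0.29), -0.31 in CCF (SE 0.31) and -0.19 in RCF (SE 0.29). Cd3d was the one CD3 chain whose mean was lower in CCF than in Ctrl, and without CCF 3 that difference was -0.56, with an adjusted p of 0.695 in limma.

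Cd3g encodes the gamma chain. It read 0.14, -0.15, 0.55 and 0.52 in VCF, 0.04, 0.64 and 0.43 in CCF, 0.13, 0.32, 0.02 and 0.36 in RCF, and 0.45, 0.57 and -0.31 in Ctrl. The Ctrl lungs spanned a wider range than the lungs of any fibre group. Group means lay close to that of Ctrl: the difference was 0.02 in VCF (95% interval -0.49 to 0.54), 0.13 in CCF (-0.42 to 0.68) and -0.03 in RCF (-0.54 to 0.48).

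Cd3e encodes the epsilon chain, which pairs with both of the others. It read -3.35, -3.21, -2.59 and -3.10 in VCF, -2.41, -3.03 and -2.61 in CCF, -3.24, -3.05, -3.03 and -3.18 in RCF, and -2.37, -3.27 and -3.08 in Ctrl. The 4 RCF lungs lay close together, with an SD of 0.10, and below the 3 CCF lungs, though the nearest of them, at -3.031 in RCF and -3.027 in CCF, all but touched. RCF minus CCF was -0.45 (SE 0.23, limma adjusted p = 0.669). It was 0.12 after normexp background correction and -0.41 without CCF 3. CCF minus Ctrl was 0.23, and -0.32 after normexp. RCF lungs lay wholly below CCF lungs at 3.2% of all probes.

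Of the co-receptors, CD8 marks cytotoxic T cells and CD4 helper cells. Cd8a, read at its brightest probe, was -1.03, -1.37, -0.39 and -0.48 in VCF, -0.47, -0.55 and 0.22 in CCF, -1.07, -0.65, -1.15 and -0.99 in RCF, and -0.55, -0.52 and -1.25 in Ctrl. CCF 3 was the highest of all 14 lungs. The 3 CCF lungs lay above the 4 RCF lungs, as they did at 3.2% of all probes. CCF minus Ctrl was 0.51 (SE 0.30, limma adjusted p = 0.804) and RCF minus CCF was -0.70 (SE 0.28, limma adjusted p = 0.576). Without CCF 3 these were 0.26 and -0.45, both smaller than with it.

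Cd8a has 2 further probes, and they did not give differences of the same size. CCF minus Ctrl was 0.50 at the second (A_52_P150547) and 0.15 at the third (A_52_P443334). The third probe has 10 spots, whose SD was 0.04 to 0.11 on an array. RCF minus CCF was -0.54 and -0.30 at these probes, and their RCF and CCF lungs overlapped. Without CCF 3, CCF minus Ctrl was 0.39 at the second probe and -0.14 at the third, and RCF minus CCF was -0.44 and -0.0092. VCF minus Ctrl was -0.04 at the brightest probe, 0.08 at the second and -0.24 at the third. At all 3 probes CCF 3 was the highest of the 14 lungs.

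**Figure D2:**
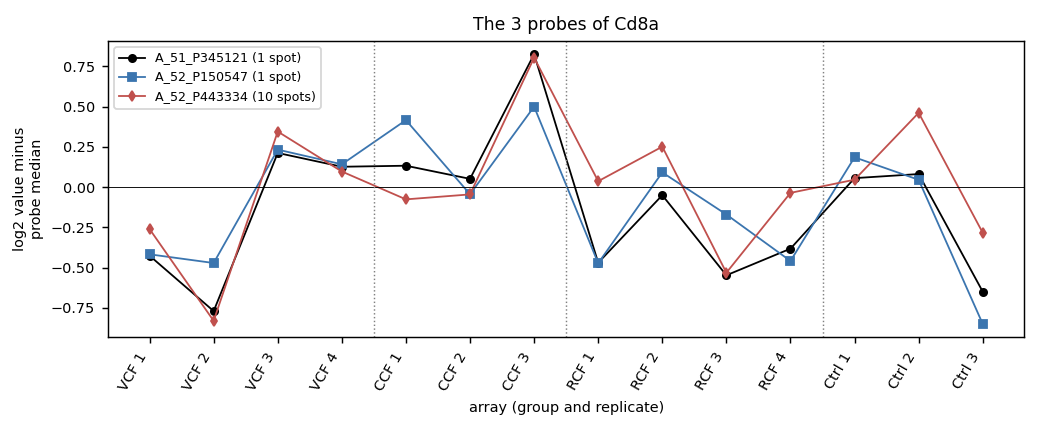
Level of the 3 Cd8a probes in each lung (log2 value minus that probe's median over the 14 arrays, vertical axis), with VCF, CCF, RCF and Ctrl lungs from left to right, parted by dotted lines. All 3 probes peak on CCF 3, where the brightest is 0.82 above its median.

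Cd4 had 1 dim probe, with 10 spots on each array whose SD was 0.23 to 0.47. It read -5.11, -6.02, -5.10 and -5.90 in VCF, -5.58, -5.36 and -5.24 in CCF, -5.40, -5.63, -5.75 and -5.72 in RCF, and -5.87, -5.76 and -5.36 in Ctrl. All 4 groups overlapped, and the VCF range held every lung of the other groups. Differences from Ctrl were 0.13 in VCF, 0.27 in CCF and 0.04 in RCF, with SEs of 0.23, 0.25 and 0.23. After normexp background correction CCF minus Ctrl was -0.60, while the VCF and RCF differences from Ctrl kept their signs. RCF minus CCF was -0.23, and 0.61 after normexp.

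Cd5, the inhibitory co-receptor, varied most within groups. It read 0.68, 0.32, 1.31 and 1.73 in VCF, 1.14, 1.43 and 1.66 in CCF, 1.05, 1.09, 1.15 and 1.72 in RCF, and 1.30, 2.02 and 0.68 in Ctrl. The within-group SD was 0.50, against 0.28 for the median probe tested, and all groups overlapped. The difference from Ctrl was -0.32 in VCF (95% interval -1.09 to 0.45), 0.08 in CCF (-0.74 to 0.90) and -0.08 in RCF (-0.85 to 0.69).

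Lck, the kinase that starts the cascade, read 0.23, 0.08, 0.53 and 0.62 in VCF, 0.92, 0.85 and 1.12 in CCF, -0.11, 0.28, 0.41 and 0.59 in RCF, and 0.98, 0.90 and -0.17 in Ctrl. The 3 CCF lungs lay above every VCF and RCF lung, whereas the Ctrl lungs reached from below all other lungs to near the top. CCF minus Ctrl was 0.39 (SE 0.28, limma adjusted p = 0.834), and 0.31 without CCF 3. RCF minus Ctrl was -0.28 (SE 0.26, limma adjusted p = 0.997). CCF minus VCF was 0.60 (SE 0.26, 1.52-fold, limma adjusted p = 0.851) and RCF minus CCF was -0.67 (SE 0.26, limma adjusted p = 0.563). Lck was the one member whose CCF and VCF lungs did not overlap, with CCF wholly above VCF at 1.28% of all probes. CCF lay wholly above RCF in 3 of 9 members, Lck, Cd3e and Cd8a, and at 3.2% of all probes. Without CCF 3, CCF minus VCF was 0.52 and RCF minus CCF was -0.59. Without Ctrl 3, the lowest lung, VCF minus Ctrl was -0.58 (limma adjusted p = 0.389), against -0.0027 without Ctrl 1, -0.04 without Ctrl 2 and -0.21 with all lungs.

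Zap70, the kinase recruited to the phosphorylated CD3 chains, had the smallest spread within groups of the members, with an SD of 0.20. It read -0.64, -0.79, -0.36 and -0.51 in VCF, -0.27, -0.56 and 0.08 in CCF, -0.49, -0.49, -0.55 and -0.36 in RCF, and -0.13, -0.19 and -0.34 in Ctrl. All 4 VCF lungs and all 4 RCF lungs lay below the 3 Ctrl lungs, by as little as 0.02 between the nearest lungs. VCF minus Ctrl was -0.36 (SE 0.15, 0.78-fold, unadjusted p = 0.0361, limma adjusted p = 0.555). RCF minus Ctrl was -0.25 (SE 0.15, limma adjusted p = 0.981). Zap70 was 1 of 9 members with no overlap in either comparison, where VCF lay wholly below Ctrl at 2.66% and RCF wholly below Ctrl at 3.86% of all probes.

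Lat, the adaptor that gathers the next enzymes, read 0.04, -0.35, 0.48 and 0.41 in VCF, 0.29, 0.16 and 0.44 in CCF, 0.25, 0.33, 0.24 and 0.46 in RCF, and 0.52, 0.35 and -0.13 in Ctrl. Group means were 0.15 ± 0.38 in VCF (SD, n = 4), 0.30 ± 0.14 in CCF (n = 3), 0.32 ± 0.10 in RCF (n = 4) and 0.25 ± 0.34 in Ctrl (n = 3). The differences from Ctrl, -0.10 in VCF, 0.05 in CCF and 0.07 in RCF, were smaller than the spread within VCF or Ctrl.

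**Figure D3:**
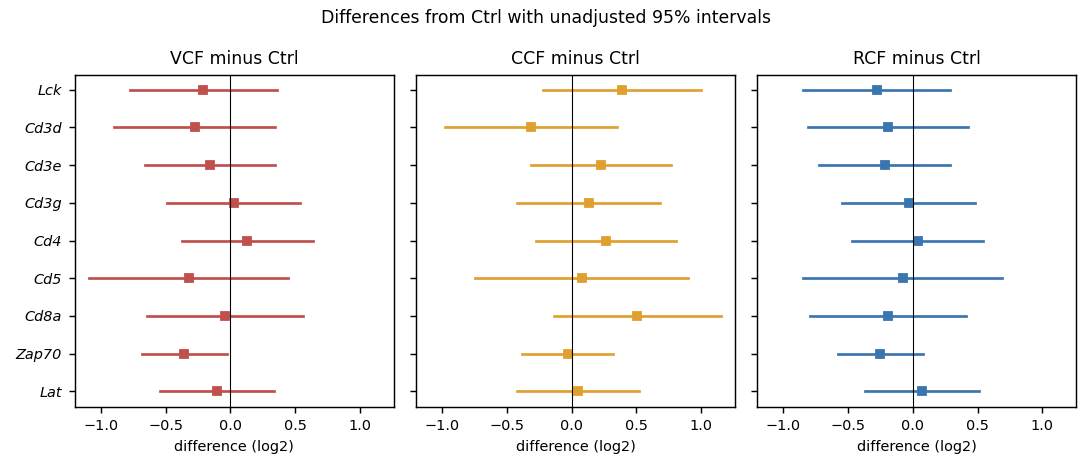
Difference from Ctrl for each gene (log2, horizontal axis) in VCF, CCF and RCF, from left to right; squares are the limma estimates and lines their unadjusted 95% intervals. The Zap70 interval in VCF, -0.68 to -0.03, is the one of these 27 that leaves out 0.

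Taken as a list, the 9 members had a median difference from Ctrl of -0.16 in VCF, with 2 higher and 7 lower. In CCF the median was 0.13, with 7 higher and 2 lower, and in RCF it was -0.19, with 2 higher and 7 lower. The medians over all probes were 0.01, -0.01 and 0.01 in the same comparisons. These 3 comparisons share the Ctrl lungs, and single lungs turned or moved their medians. In VCF the median was 0.03 without Ctrl 1 (5 of 9 higher), -0.04 without Ctrl 2 (4 higher) and -0.29 without Ctrl 3 (1 higher). Leaving out a VCF lung gave -0.07 (VCF 1), -0.09 (VCF 2), -0.26 (VCF 3) and -0.19 (VCF 4). In CCF it was 0.18 without Ctrl 1 (8 higher), 0.22 without Ctrl 2 (7 higher), -0.09 without Ctrl 3 (4 higher), 0.21 without CCF 1 (7 higher) and 0.10 without CCF 3 (5 higher). In RCF it was -0.07 without Ctrl 1, -0.03 without Ctrl 2, -0.31 without Ctrl 3 and -0.10 without RCF 3, with 1 to 3 higher. Members with an unadjusted p under 0.05 were 1 of 9 in VCF against Ctrl (8.26% of all probes), 0 in CCF against Ctrl (6.59%) and 0 in RCF against Ctrl (5.34%). Over all fibre groups together the median was -0.03, with 4 members higher and 5 lower, and 0 had an unadjusted p under 0.05 (6.66% of all probes). That median was 0.14 without Ctrl 1, 0.10 without Ctrl 2, -0.23 without Ctrl 3 and 0.01 without RCF 1.

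Between the fibres, most members had their highest mean in CCF. CCF minus VCF had a median of 0.32, with 8 of 9 higher, and RCF minus CCF a median of -0.22, with 7 of 9 lower, while all probes had medians of -0.02 and 0.01. RCF minus VCF had a median of -0.06, with 4 higher and 5 lower, against -0.01 for all probes. Unadjusted p was under 0.05 for Lck alone in CCF against VCF (5.8% of all probes) and for Lck and Cd8a in RCF against CCF (7.9%), and for 0 members in RCF against VCF (5.29%). Without CCF 3, the medians were 0.16 in CCF minus VCF and -0.13 in RCF minus CCF, and 0 members had such a p in either. Without VCF 2, CCF minus VCF had a median of 0.17, with 5 of 9 higher and 0 members at such a p. That count was also 0 without VCF 1, CCF 1 or RCF 2, 2 without VCF 4, 3 without CCF 2 and 4 without VCF 3. In RCF against CCF it was 0 without RCF 1, 1 without RCF 3, 3 without Ctrl 1 and 4 without CCF 2. The share of all probes at such a p in these fits without a lung is not given, so these counts have no background. RCF minus VCF turned to 0.10 without VCF 3, 0.03 without VCF 4, 0.06 without RCF 1 and 0.0063 without RCF 3, and was -0.11 without VCF 2.

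The members varied from lung to lung within groups, and mostly in the same direction. After each gene's median was subtracted, the mean over the 9 members was -0.25, -0.54, 0.23 and 0.10 in the 4 VCF lungs, 0.09, 0.03 and 0.41 in CCF, -0.20, -0.03, -0.19 and 0.03 in RCF, and 0.19, 0.21 and -0.31 in Ctrl. VCF 2 had 9 of 9 members below their medians, and CCF 3 had 9 of 9 above. VCF 1 and VCF 2 both lay below VCF 3 and VCF 4 in 8 of the 9 members, and Ctrl 3 was the lowest Ctrl lung in 7.

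**Figure D4:**
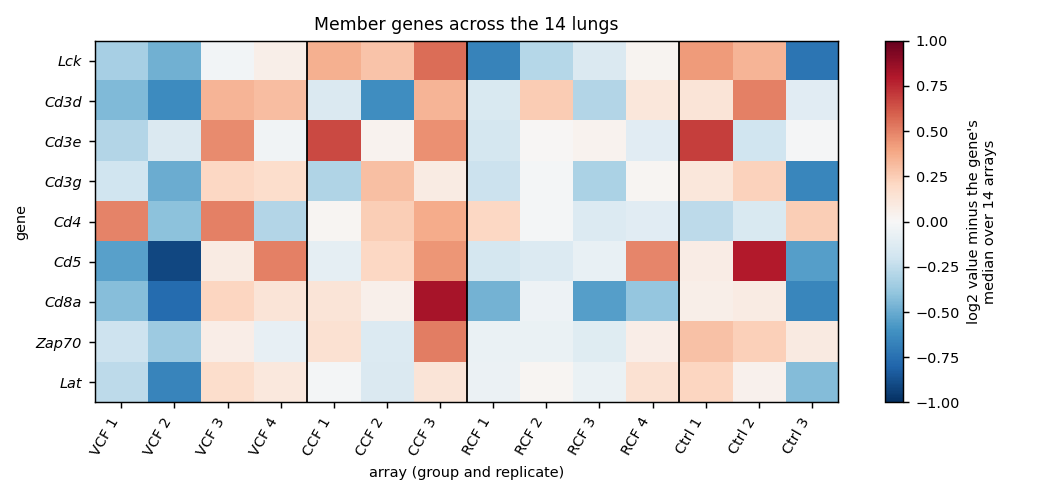
Each member (rows) in each lung (columns, with VCF, CCF, RCF and Ctrl from left to right), coloured by its log2 value minus the gene's median over 14 arrays. The columns of VCF 2 (below its median in 9 of 9 genes) and CCF 3 (above in 9 of 9) are each of one colour, while Ctrl 3 is low in 7 of 9.

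Over the 14 lungs, which share their slides and one scaling per array, Pearson's r between 2 members had a median of 0.61 over 36 pairs, from -0.09 to 0.81. Lck and Cd8a had the highest r, 0.81, followed by Cd5 and Lat and by Cd5 and Cd3g. The neighbours Cd3d and Cd3g had an r of 0.50. Cd4, the dimmest of the probes read, stood outside, with a median r of 0.07 to the other members, and without it the median of 28 pairs was 0.65. Cd3e, the third CD3 chain, was also loosely tied to some members, with r of 0.16 to Cd5, 0.20 to Cd3g and 0.28 to Cd3d. With Lat, Lck, Cd8a and Zap70 its r was 0.48, 0.60, 0.61 and 0.62. The median r between members and the 14459 other genes tested was 0.00. After group means were subtracted the median over the 36 pairs was 0.57, and without CCF 3 it was 0.55.

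Differences from Ctrl within a slide did not keep one direction. On slide 1 the VCF lung minus the Ctrl lung was below 0 for 9 of 9 members, with a median of -0.83. On slide 3 the same difference was above 0 for 8 of 9, with a median of 0.61 and Zap70 at -0.02 as the exception, and on slide 2 the median was -0.14. CCF minus Ctrl had a median of -0.14 on slide 1 and of 0.56 on slide 3, where the lungs were CCF 3 and Ctrl 3. RCF minus Ctrl had medians of -0.42, -0.21 and 0.06 on slides 1, 2 and 3. Each of these values rests on 1 lung a group, and slide and scan cannot be told apart. With slide as a block in the fit, the member medians against Ctrl were -0.10 in VCF, 0.19 in CCF and -0.12 in RCF. In that fit 0 members passed.

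The genes whose profile over the 14 lungs was nearest to the member mean were looked for among 13419 genes, by the root-mean-square difference in log2. The 8 nearest were Rasal3 (0.08), Skap1 (0.12), H2-Ab1 (0.12), Rgs19 (0.13), Sit1 (0.13), Kmo (0.13), Cd27 (0.13) and Lcp1 (0.13). Skap1 is an adaptor of T cells, Sit1 a transmembrane adaptor of lymphocytes, and Cd27 a co-stimulatory receptor. H2-Ab1 encodes an MHC class II chain of antigen-presenting cells, and Lcp1 an actin-bundling protein of white blood cells. Among the members Lat lay nearest to the mean, at 0.13, and Cd4 farthest, at 0.35. Without CCF 3, Rasal3 was again first, and Lcp1 moved to rank 25.

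Of the other genes of the pathway 0 passed the threshold in any comparison. At most 0.0102% of all probes passed in a comparison, so a count of 0 does not set these genes apart. Of 13 further surface genes, 10 were tested, among them Cd247, Cd2, Cd28 and Icos. Their medians against Ctrl were -0.19 in VCF, 0.07 in CCF and -0.12 in RCF. An unadjusted p under 0.05 in limma was found for 0, 1 and 0 genes (8.26%, 6.59% and 5.34% of all probes). Of these, Trat1, which steadies the receptor complex, was -3.58 ± 0.43 in VCF, -3.18 ± 0.18 in CCF, -3.67 ± 0.25 in RCF and -3.80 ± 0.37 in Ctrl (SD, n = 4, 3, 4 and 3). CCF minus Ctrl was 0.62 (SE 0.25, limma adjusted p = 0.73), and 0.69 without CCF 3. Cd27 differed from Ctrl by -0.24 in VCF, 0.04 in CCF and -0.16 in RCF.

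Of 25 intracellular signalling genes, 23 were tested, with medians of -0.14 in VCF, 0.06 in CCF and -0.01 in RCF against Ctrl. Such an unadjusted p was found for 1, 3 and 0 genes (8.26%, 6.59% and 5.34% of all probes). Ubash3a, a negative regulator of receptor signalling, differed by -0.39 in VCF, 0.35 in CCF and -0.29 in RCF from Ctrl. Malt1, which links the receptor to NF-kappaB, differed by -0.08 in VCF, -0.03 in CCF and 0.21 in RCF from Ctrl. In both lists together 0 genes passed in any of the 7 comparisons, where at most 0.0102% of all probes did.

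Of 12 T cell transcription factors 11 were tested, and medians against Ctrl were -0.05 in VCF, 0.14 in CCF and 0.01 in RCF. Such an unadjusted p was found for 1, 2 and 1 of them (8.26%, 6.59% and 5.34% of all probes). Bcl11b, which commits precursors to the T cell lineage, was -2.69 ± 0.27 in VCF, -2.04 ± 0.60 in CCF, -3.02 ± 0.29 in RCF and -2.96 ± 0.26 in Ctrl (SD, n = 4, 3, 4 and 3). CCF minus Ctrl was 0.92 (SE 0.28, limma adjusted p = 0.637), and 0.66 without CCF 3 (SE 0.28, limma adjusted p = 0.648). Its 3 CCF lungs stood 0.11, 0.88 and 1.30 above the gene's median, highest in CCF 2 and CCF 3. These are also 2 of the 3 lungs with Rag1 above background, and the part of thymocyte RNA in this value was not tested.

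All 11 homing and survival genes were tested, with medians against Ctrl of -0.14 in VCF, -0.05 in CCF and 0.00 in RCF. Such an unadjusted p was found for 0, 1 and 0 of them (8.26%, 6.59% and 5.34% of all probes). Cd69, which holds activated T cells in tissue, ranged from -1.30 to -0.55 in VCF, -1.50 to -1.19 in CCF, -0.98 to -0.58 in RCF and -1.32 to -0.51 in Ctrl. RCF minus CCF was 0.67 (SE 0.22, limma adjusted p = 0.52) and 0.61 without CCF 3, opposite in sign to most members. S1pr1, the exit receptor that CD69 opposes and that vessels also express, differed from Ctrl by 0.24 in VCF, 0.22 in CCF and 0.09 in RCF.

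Markers of other lymphocytes were read beside the members, and 0 of them passed in any comparison, where at most 0.0102% of all probes did. Against Ctrl, 1 of 20 such genes, in CCF, had an unadjusted p under 0.05 in limma (6.59% of all probes in that comparison). All 10 natural killer cell genes were tested. Against Ctrl, 10 of 10 were lower in VCF (median -0.19) and 10 of 10 lower in RCF (median -0.26), with 4 higher and 6 lower in CCF (median -0.01). Of all 14468 genes tested, 45.8% were higher than Ctrl in VCF, 49.7% in RCF and 41.3% in CCF. These counts share the Ctrl lungs, where the natural killer genes stood at 0.66 in Ctrl 1, 0.23 in Ctrl 2 and -0.39 in Ctrl 3. Counts of these genes without a single Ctrl lung were not made. The mean of the natural killer genes minus each gene's median ran from -0.78 to 0.63 in VCF, -0.08 to 0.40 in CCF, -0.34 to 0.10 in RCF and -0.39 to 0.66 in Ctrl, with VCF 2 the lowest lung as for the members. Prf1, the pore-forming protein that cytotoxic T cells share, was -2.04 ± 0.35 in VCF, -1.08 ± 0.36 in CCF, -2.16 ± 0.54 in RCF and -2.00 ± 0.55 in Ctrl (SD, n = 4, 3, 4 and 3), and CCF minus Ctrl was 0.92 (SE 0.35, limma adjusted p = 0.714), or 0.82 without CCF 3. Nkg7, a granule protein of both cell types, differed from Ctrl by -0.41 in VCF, -0.01 in CCF and -0.38 in RCF.

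The 10 B cell genes did not follow the same order. Their medians against Ctrl were -0.03 in VCF, -0.19 in CCF and 0.21 in RCF, and their mean on an array ran from -0.65 to 0.54 in VCF, -0.24 to -0.04 in CCF, 0.00 to 0.31 in RCF and -0.35 to 0.24 in Ctrl. Ms4a1, which encodes CD20, was 2.53 ± 0.59 in VCF, 1.94 ± 0.33 in CCF, 2.71 ± 0.37 in RCF and 2.38 ± 0.46 in Ctrl (SD, n = 4, 3, 4 and 3), so that CCF had the lowest mean of this gene while it had the highest mean of Lck and Cd8a. Fcrla, an Fc receptor-like protein of B cells, averaged 0.66 in VCF, 0.60 in CCF, 1.03 in RCF and 0.74 in Ctrl. The B cell and natural killer cell parts in the members' values were not tested.

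**Figure D5:**
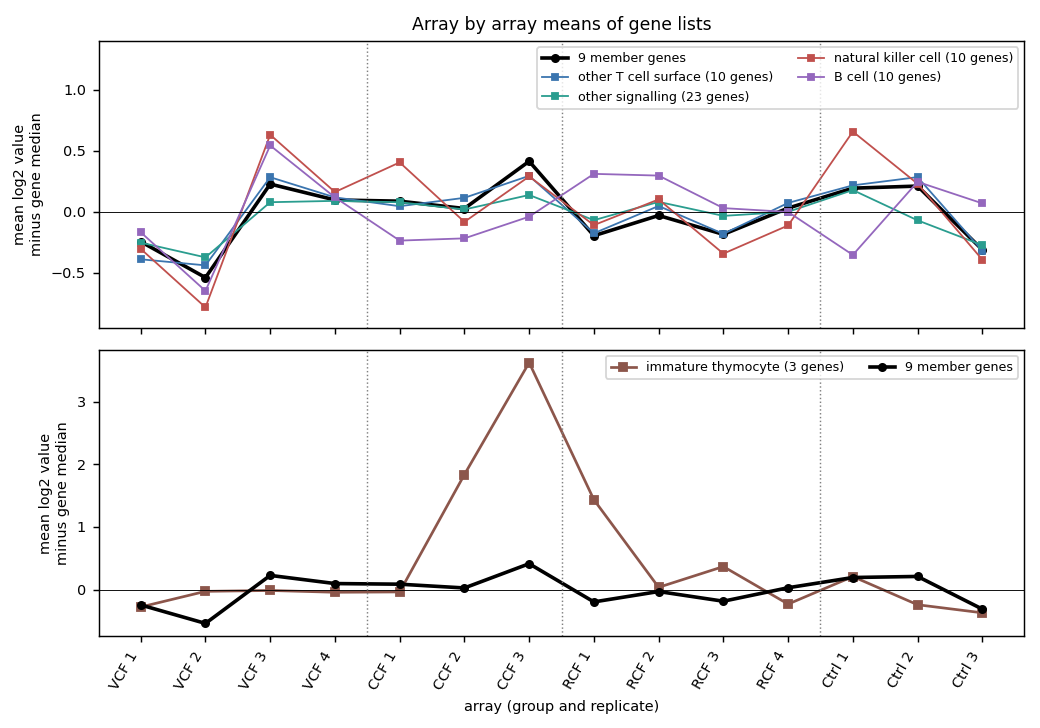
Mean of each gene list in each lung (log2 value minus the gene's median over 14 arrays, vertical axis), with VCF, CCF, RCF and Ctrl lungs from left to right, parted by dotted lines. The members, both other T cell lists drawn, the natural killer list and the B cell list are lowest on VCF 2, whereas the thymocyte list in the lower panel peaks at 3.62 on CCF 3, where the members stand at 0.41. The thymocyte list includes Rag1, which was above background on CCF 2, CCF 3 and RCF 1 only.

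Of all probes, 8.26%, 6.59% and 5.34% had an unadjusted p under 0.05 in limma in VCF, CCF and RCF against Ctrl. Among the remaining cell type lists, only alveolar macrophage genes (2, 4 and 3 of 7 tested) and red blood cell genes (3, 2 and 2 of 4) had such a p. All the remaining lists had 0 genes past the threshold, which at most 0.0102% of all probes passed in a comparison. Their medians in VCF, CCF and RCF against Ctrl were 0.09, -0.03 and 0.23 for thymic epithelium (3 genes tested), -0.36, -0.17 and -0.30 for dendritic cells (5 genes) and -0.34, -0.58 and -0.29 for alveolar macrophages (7 genes). They were 0.03, 0.03 and 0.00 for lung epithelium (8 genes), 0.97, 1.78 and 1.12 for liver (4 genes) and 0.75, 0.55 and 0.14 for adipose tissue (6 genes). For cardiac muscle (6 genes) they were 0.75, 0.53 and 0.53, and for red blood cells (4 genes) 1.41, 0.88 and 1.02. A fit was also made without CCF 2, CCF 3, RCF 1 and VCF 1, the lungs highest in liver, thymus or adipose genes. There the member medians against Ctrl were -0.07 in VCF, 0.04 in CCF and -0.15 in RCF. CCF 1 was the only CCF lung left in that fit, so its CCF median is not a group result.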

How the data were processed

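Agilent Feature Extraction 10.7.3.1 made the scanner files, per the file headers. Their processed intensity per spot is background-subtracted, per the file headers, and was deposited without scaling between arrays. Flags for signal above background are other columns of the same files, per the file headers. The authors' deposited value table is on a log2 scale: 100% of its values, for 27496 probes with all 11 member probes among them, lay within 0.01 of the log2 processed intensity minus a constant for each array. That constant was within 0.00365 of the array's 75th percentile, and the column medians were -1.27 to -1.19. How its probes were selected is not given in the sources used here.

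Here, 43379 spots (1639 control spots left out) were averaged per probe as log2 values, without spots flagged non-uniform or as population outliers, and each array's 75th percentile was subtracted. A probe entered the test with signal above background on 3 or more of the 14 arrays in any group, which 29269 of 41174 did (14468 genes). RefSeq transcripts on GRCm38.p6 named 24844 probes and left 16330 unnamed. The array's own grid rests on another assembly, so no probe coordinates are given. A gene was read at its brightest tested probe. Bcl11b, Dntt and Nkg7 have 2 tested probes each, and values of the dimmer probe are not given here.

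Groups followed the labels. limma 3.58.1 in R 4.3.3 fitted all groups at once, two-sided, with 10 residual and 2.39 prior degrees of freedom. Figures used matplotlib 3.10.9 in Python 3.11.15. In arrays simulated with known changes in VCF against Ctrl, 48% of 100 changes of 1 and 82% of 100 changes of 2 (log2) were found, and 8 unchanged probes of 29147 were called. The simulated noise was independent between probes, and many changes in 1 comparison ease the adjusted threshold. In the measured arrays 3 probes passed in VCF against Ctrl, so these shares do not give the power for a member change here. Lungs with the same replicate number were not treated as pairs. Over 19 such pairs between groups, deviations from the group means correlated at -0.37 to 0.35 (median 0.051). Over 54 pairs with different numbers they correlated at -0.31 to 0.43 (median 0.0035). The median was 0.12 over 18 pairs on the same slide and -0.08 over 55 pairs on different slides. The main fit has no term for slide.

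The members and the gene lists were chosen with earlier results of these data known. Named from each list are the tested genes with the smallest p for any difference among the groups, 2 a list, for T, natural killer and B cells. One gene that this rule names is not reported here. For the lists of other cells only counts and medians are given. Alternatives were normexp (offset 50, on median spot intensity since the files hold no mean), quantile normalization, the deposited table, other filters, slide or replicate number as a block, within-slide differences, a trended robust prior, the mean over a gene's probes, only the groups compared, and leaving out each array. A fit without 4 lungs was added after seeing the data.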

Additional observations from a re-analysis of the deposited data

Results flagged for a closer look

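In RCF 4, Cd5 stood at 1.72, apart from the other 3 RCF lungs at 1.05 to 1.15: the gap to the nearest was 0.85 of the group's whole range, above Dixon's critical value for 4 samples. The test was made on 22 groups of values, of which chance alone would flag about 1 in 20, and 1 was flagged.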

How the results depend on the processing

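The count of members past the threshold was 0 in every comparison under all 25 alternatives with a test, and the lowest adjusted p of any member was 0.389. Of 1575 recomputed member differences, 106 differed in sign from the value reported, none of them past the threshold in either. Counts over all probes were small and moved. VCF against Ctrl had 3 probes past the threshold, and 0 under normexp, 0 under quantile normalization, 6 in the deposited table, 5 with no filter, 6 with signal asked for on at least 7 arrays, 1 with only the groups compared (which gives no test of any difference) and 0 without the 4 lungs. All fibres against Ctrl had 1, and 0 under normexp, 0 under quantile normalization, 2 with no filter, 5 under the trended robust prior and 0 without the 4 lungs. With no filter, RCF against Ctrl had 1 and any difference had 1. With slide as a block the counts were 1 in VCF against Ctrl, 0 in all fibres against Ctrl and 1 in RCF against VCF. With the replicate number as a block they were 6 in VCF against Ctrl and 0 in all fibres against Ctrl, and no member was called. Leaving out 1 lung at a time gave 0 to 16 in VCF against Ctrl, 0 to 1 in CCF against Ctrl, 0 to 10 in RCF against Ctrl, 0 to 12 in all fibres against Ctrl, 0 to 1 in CCF against VCF, 0 to 1 in RCF against VCF, 0 to 3 in RCF against CCF and 0 to 4 for any difference. The highest counts came without CCF 1 (16, 10 and 4 in VCF against Ctrl, RCF against Ctrl and any difference) and without CCF 3 (12 and 3 in all fibres against Ctrl and RCF against CCF). Normexp moved the median of all probes to -0.23 in CCF against Ctrl, -0.27 in CCF against VCF and 0.22 in RCF against CCF, where the member medians were 0.12, 0.25 and -0.12, so the gap between members and all probes was wider than in the values reported. The causes of these shifts were not tested. Cd4 was read at a low signal, with a spot SD of up to 0.47.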
